A study of Mus musculus with 8 samples.

Results

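Bcap29 and 9 other genes of endoplasmic reticulum (ER) quality control were followed after knockdown of Eif4g3 in stromal cells of BALB/c mouse lymph nodes, grown in culture. The 10 genes are Bcap29, Bcap31, Canx, Calr, Pdia3, Pdia4, Pdia6, Sel1l, Syvn1 and Derl1. They were found by the gene name of each probe, which gave 22 probes, and all 10 genes were among the 14848 genes tested, out of 28599 gene names on the array. Bcap29 was chosen by its measured ratios, because its signal was far lower after the knockdown in both RNA fractions, so its own ratios are given as a description with no test.

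The cells received 400 pmol of an siRNA against Eif4g3 or of a control siRNA by lipofection, and were harvested 48 h later. Eif4g3 encodes one of the large scaffold proteins on which the cap-binding translation initiation complex is built. Each siRNA went onto 7 plates, and the cells for the sucrose gradient were pooled, so the labels leave it unsaid whether arrays hold separate cultures, and the p-values may measure technical spread only. The 8 two-colour arrays fall into 4 of total RNA, taken from the whole lysate, and 4 of heavy polysome RNA, called polysomal RNA from here on, which came from the gradient fractions in which mRNAs carry many ribosomes. On every array 200 ng of RNA per sample was labelled, the knockdown sample in Cy5 and its control sample, of like fraction, in Cy3. With no dye swap, a dye bias of a probe and a change of its transcript cannot be told apart within a fraction.

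Proteins made on the ER are folded and inspected there. The lectin chaperones calnexin (Canx) and calreticulin (Calr) hold newly made glycoproteins, the disulfide isomerases Pdia3, Pdia4 and Pdia6 form and rearrange their disulfide bonds, and proteins that fail to fold are passed to the Sel1l and Syvn1 ubiquitin ligase complex, with Derl1 in the membrane channel through which they leave. Bcap29 and Bcap31 are related membrane proteins of the ER that associate with each other and with newly made membrane proteins and take part in their sorting. Many of these genes are induced together when unfolded proteins build up.

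The promoters of these genes are where that joint induction is known to act, so they were searched for the ER stress response element, which is CCAAT, then 9 bases of any kind, then CCACG, on either strand. The RefSeq promoter table (build GRCm38.p6, 250 bases before to 50 after a start site) holds 8 of the 10 genes, all but Bcap29 and Derl1. These 4 stretches are shown because they hold a complete element, in capitals at its conserved ends, with 20 bases on each side. They read 5′ to 3′ on the gene's strand, and in Calr the element lies in reverse, as CGTGG and ATTGG.
Canx promoter, chr11:50325780-50325838, minus strand: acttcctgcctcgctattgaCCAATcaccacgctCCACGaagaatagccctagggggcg
Calr promoter, chr8:84847055-84847113, minus strand: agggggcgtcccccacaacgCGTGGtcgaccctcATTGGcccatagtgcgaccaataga
Pdia6 promoter, chr12:17266471-17266529, plus strand: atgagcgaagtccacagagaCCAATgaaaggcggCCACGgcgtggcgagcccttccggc
Syvn1 promoter, chr19:6046512-6046570, plus strand: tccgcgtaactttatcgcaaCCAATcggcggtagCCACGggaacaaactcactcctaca
The element ended 126 bases before the start site in Canx, 143 in Calr, 79 in Pdia6 and 25 in Syvn1. It occurred in 4 of the 8 promoters searched, against 39 of 32851 promoters in the table (0.119%). The second part alone, CCACG, was in 6 of the 8 and in 32.8% of all promoters, and CCAAT alone in 8 of the 8 and in 37.4%. No complete element was found in the Bcap31, Pdia3, Pdia4 and Sel1l windows, which says only that these letters are not in those windows.

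Array quality was uneven. Probes well above background made up 37.6% to 57.5% in Cy3 and 43.1% to 53.5% in Cy5, no spot was saturated, and the number of arrays limits the precision. Polysomal array 1 stood apart, with the lowest Cy3 share and the lowest mean correlation with the other arrays of its fraction (r = 0.288 across genes), followed by polysomal array 3 (0.317) and total RNA array 4 (0.326). Polysomal arrays 2 and 4 were the most alike pair of all (r = 0.884, next pair 0.735). Every slide held 1 fraction only. All 9 fibroblastic stromal markers examined were well above background in Cy3 on all 8 arrays, while no endothelial marker (of 6) and no T cell marker (of 4) was. Among 7 leukocyte and macrophage markers, Cd68, Csf1r, Cd14 and Lyz2 were well above background on all arrays, and Ptprc, Adgre1 and Itgam on none. Of 6 markers of B and plasma cells, which are rich in ER, Sdc1 alone was, a gene that stromal cells can also express.

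The knockdown itself was measured first. Eif4g3 had log2 ratios (knockdown over control) of -2.48, -1.81, -1.94 and -2.05 on total RNA arrays 1 to 4. On polysomal arrays 1 to 4 they were -3.16, -2.24, -2.43 and -1.999. It fell 4.20-fold in total RNA (mean -2.07 ± 0.29, SD, n = 4, limma adjusted p = 0.00201) and 5.49-fold in polysomal RNA (-2.46 ± 0.50, n = 4, limma adjusted p = 6.12e-04). The target was thus lower on all 8 arrays, as labelled.

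Bcap29 is read by 1 probe on the array, at chr12:32181568-32181627 on the minus strand of mm8, the build of the array files. The probe was well above background in both channels of all 8 arrays. Its log2 ratio was -1.71, -2.19, -2.13 and -2.84 on total RNA arrays 1 to 4. In polysomal RNA it was -0.25, -2.04, -2.80 and -2.14 on arrays 1 to 4. Every array was below 0, 7 of them by more than 1.7 log2 units, and polysomal array 1 was the exception. The means were -2.22 ± 0.47 in total RNA (SD, n = 4), a level 4.65-fold lower, and -1.81 ± 1.09 in polysomal RNA (n = 4), 3.50-fold lower. Among all tested genes, the target included, Bcap29 had the lowest mean in total RNA (rank 1 of 14848) and the next to lowest in polysomal RNA (rank 2). In such bulk samples fewer cells of a type and less RNA per cell cannot be told apart.

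**Figure D1:**
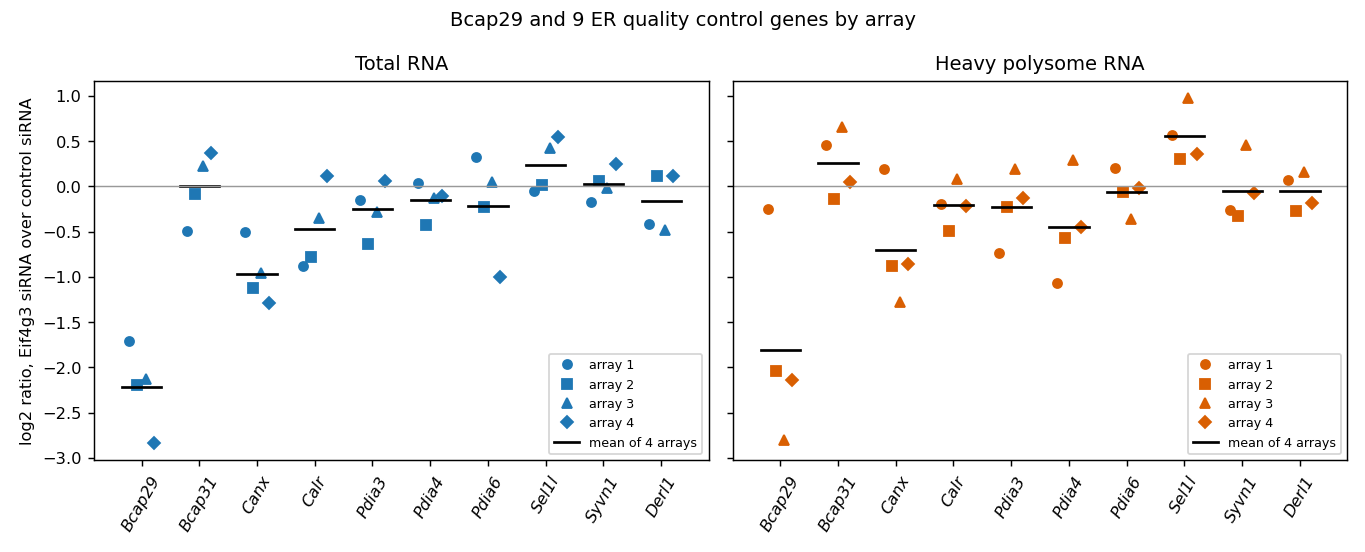
Log2 ratio of knockdown over control (vertical axis) for the 10 genes on the 4 total RNA arrays (left) and the 4 polysomal arrays (right); symbols mark the array number within a fraction and black bars the mean of 4 arrays. Bcap29 lies below -1.7 on 7 of 8 arrays, Canx is the next lowest in both fractions, and the other genes scatter about 0.

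The levels in each channel show where polysomal array 1 departs. Normalised log2 intensities of Bcap29 in control cells were 12.08, 11.45, 11.36 and 10.44 on total RNA arrays 1 to 4; the polysomal arrays gave 10.22, 11.84, 11.95 and 11.87. After Eif4g3 siRNA the total RNA values were 10.37, 9.26, 9.23 and 7.60, and the polysomal values 9.97, 9.80, 9.15 and 9.73. The small ratio of polysomal array 1 thus came with a low control level on that array, while its knockdown level was within 0.2 log2 units of the next highest. Ordered by mean level, control polysomal RNA (11.47 ± 0.84, SD, n = 4) and control total RNA (11.33 ± 0.68) were highest and overlapped, and knockdown polysomal RNA (9.67 ± 0.36) and knockdown total RNA (9.11 ± 1.14) were lowest and overlapped. Without polysomal array 1 the mean ratio in that fraction was -2.33.

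Whether Bcap29 mRNA moved on or off heavy polysomes beyond its change in total RNA is asked by the difference between the fractions. Since Bcap29 was chosen by these ratios, the values are given with no test. The polysomal minus total RNA difference of the mean log2 ratios was 0.41. Its sign rested on polysomal array 1, since without that array the polysomal mean was -2.33, below the -2.22 of total RNA. The polysomal over total RNA level was 0.14 in control cells and 0.55 after the knockdown, while the levels of the fractions overlapped in both.

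The neighbours of Bcap29 on its chromosome were examined next. Of the 3 RefSeq genes on each side, Cbll1, a ubiquitin ligase gene, and Dus4l, a gene for a tRNA-modifying enzyme, could be tested. Cbll1 had a mean log2 ratio of 0.28 ± 0.21 in total RNA and 0.05 ± 0.34 in polysomal RNA (SD, n = 4 each, limma adjusted p = 0.252 and 0.853). For Dus4l these were 0.04 ± 0.59 and 0.30 ± 0.23 (limma adjusted p = 0.934 and 0.368). Neither passed the test. Slc26a4 and Gpr22 are on the array and did not pass the filter on dim probes, and Cog5 and Gm40362 were not matched to a probe.

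Bcap31, the partner and relative of Bcap29, did not pass the test. Its log2 ratio on total RNA arrays 1 to 4 was -0.50, -0.08, 0.22 and 0.37. The polysomal arrays gave 0.45, -0.14, 0.66 and 0.05. Arrays lay on both sides of 0 in both fractions. The mean was 0.00 ± 0.38 in total RNA (SD, n = 4, 95% interval -0.37 to 0.37, limma adjusted p = 0.996) and 0.26 ± 0.37 in polysomal RNA (-0.11 to 0.62, adjusted p = 0.371). The fall of Bcap29, a gene chosen for the size of that fall, lies outside both intervals. Whether the 2 genes differed was not tested. Its level was 0.66 log2 units higher in polysomal than in total RNA of control cells (95% interval 0.25 to 1.07, limma adjusted p = 0.120) and 0.92 higher after the knockdown (0.37 to 1.46, adjusted p = 0.182), neither past the threshold. The 4 control polysomal levels (13.15 to 13.62) and the 4 control total RNA levels (12.52 to 13.14) did not overlap, which held for 9.85% of all genes, while 2.14% were called in that comparison. After the knockdown they did not overlap either (13.25 to 14.28 against 12.47 to 12.99), which held for 8.05% of all genes.

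Over the 9 genes other than Bcap29, 1 was called lower in total RNA (Canx) and none higher, where 4.34% of all genes tested were called, 2.67% lower and 1.67% higher. In polysomal RNA 1 was called higher (Sel1l) and none lower, where 8.82% of all genes were called, 4.83% higher and 3.99% lower. Single calls among 9 genes are read against these background shares, and they are no result about the set. Without polysomal array 1 there was again 1 call per fraction, but the polysomal call was then Canx and no longer Sel1l (limma adjusted p = 0.0744). The median log2 ratio of the 9 was -0.17 in total RNA, against -0.04 for all genes, and -0.06 in polysomal RNA, against 0.02. Their means ran from -0.97 to 0.23 in total RNA, and the polysomal range was -0.71 to 0.55. At an unadjusted p under 0.05, 2 of the 9 passed in total RNA and 3 in polysomal RNA, where 22.04% and 25.4% of all genes did.

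Calnexin was the member after Bcap29 with the lowest ratio. On the brightest of its 3 probes (chr11:50137968-50138027, minus strand, mm8) Canx had log2 ratios of -0.50, -1.13, -0.96 and -1.29 on total RNA arrays 1 to 4. The ratios were 0.19, -0.89, -1.28 and -0.85 on polysomal arrays 1 to 4. All 4 total RNA arrays were below 0, and in polysomal RNA array 1 alone was above it. Canx fell 1.96-fold in total RNA (-0.97 ± 0.34, SD, n = 4, limma adjusted p = 0.0380), and its ratio in polysomal RNA was -0.71 ± 0.63 (adjusted p = 0.0707). Without polysomal array 1 the polysomal ratio was -1.01 and passed (limma adjusted p = 0.00936). The call in total RNA was lost without any one of the 4 total RNA arrays (limma adjusted p between 0.0629 and 0.134), and without polysomal array 2 (0.0634) or 4 (0.0676).

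The other Canx probes bear on the same transcript. The probe spanning chr11:50139727-50140508 had ratios of -0.81, -0.80, -1.19 and -0.73 in total RNA and -0.67, -0.97, -0.64 and -0.86 in polysomal RNA, below 0 on all 8 arrays and with no departure of polysomal array 1. Tested over probes instead of genes it was called in total RNA (-0.89 ± 0.21, SD, n = 4, limma adjusted p = 0.00646) and in polysomal RNA (-0.79 ± 0.16, adjusted p = 0.00420), and it passed in both fractions without each single array (limma adjusted p up to 0.0488 and 0.0324). The probe at chr11:50138547-50138606 averaged -0.43 ± 0.32 and -0.46 ± 0.87 and was not called, with polysomal array 1 at 0.71 and array 3 at -1.37. Of the 21 tested probes of the 10 genes, the Bcap29 probe and this long-span Canx probe were the 2 below 0 on all 8 arrays, and none was above 0 on all 8.

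**Figure D2:**
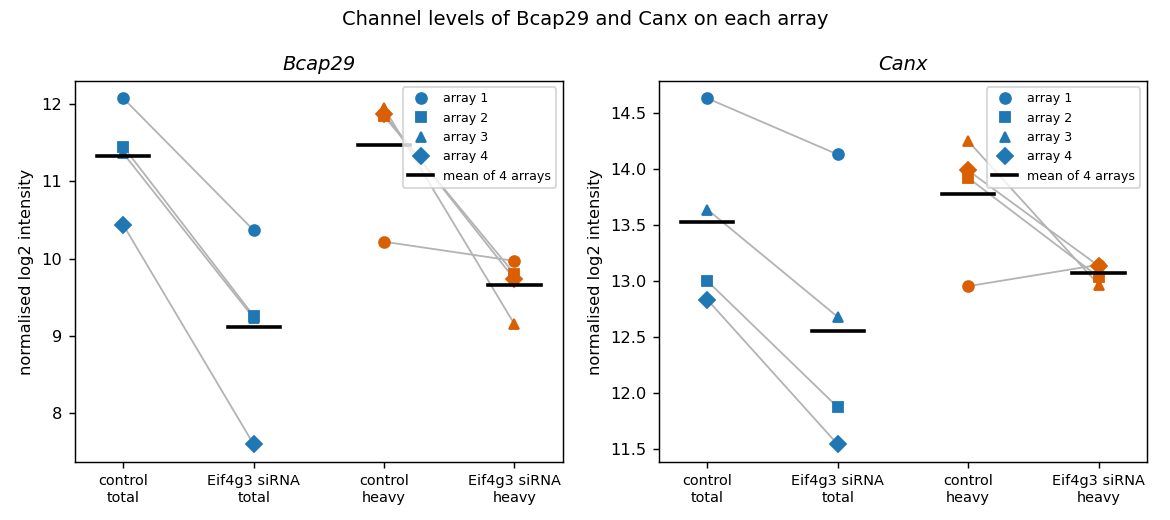
Normalised log2 intensity (vertical axis) of Bcap29 and Canx in the control siRNA and Eif4g3 siRNA channel of each array, with grey lines joining the channels of an array and black bars for the mean of 4 arrays. In polysomal RNA the control value of array 1 lies below the other 3 for both genes (10.22 against 11.84 to 11.95 for Bcap29, 12.96 against 13.92 to 14.25 for Canx), while the knockdown values lie together.

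Calreticulin, the soluble relative of calnexin, did not pass. Calr had log2 ratios of -0.88, -0.78, -0.35 and 0.11 in total RNA and -0.20, -0.50, 0.08 and -0.21 in polysomal RNA, so 3 of 4 arrays were below 0 in each fraction. The means were -0.48 ± 0.45 (SD, n = 4, limma adjusted p = 0.120) and -0.21 ± 0.24 (adjusted p = 0.462). Its second probe averaged -0.68 ± 0.50 and -0.30 ± 0.42 and was not called either. With the signals as processed by the scanner software, Calr passed in total RNA (-0.49, limma adjusted p = 0.0473).

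None of the 3 disulfide isomerase genes passed in either fraction. Pdia3, which works with calnexin and calreticulin on glycoproteins, averaged -0.25 ± 0.29 in total RNA and -0.22 ± 0.38 in polysomal RNA (SD, n = 4 each, limma adjusted p = 0.367 and 0.396). Pdia4 had ratios of -1.07, -0.57, 0.29 and -0.45 on polysomal arrays 1 to 4, with array 3 alone above 0, and averaged -0.45 ± 0.56 there (limma adjusted p = 0.154) and -0.15 ± 0.20 in total RNA. Without polysomal array 3 it was -0.70 and passed (limma adjusted p = 0.0241). Pdia6 averaged -0.22 ± 0.57 and -0.06 ± 0.23 on its brightest probe, with total RNA array 4 at -1.01 and the other 3 between -0.23 and 0.32. Its other tested probes averaged 0.11 and -0.40 in total RNA and 0.10 and 0.18 in polysomal RNA, and 1 of its 4 probes did not pass the filter on dim probes.

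Of the degradation genes, Sel1l, the adaptor that holds the ligase complex together, was called higher in polysomal RNA. On its brightest probe (chr12:92212080-92212139, minus strand, mm8) the log2 ratios were 0.57, 0.31, 0.98 and 0.36 on polysomal arrays 1 to 4. In total RNA they were -0.05, 0.01, 0.42 and 0.55. Sel1l rose 1.47-fold in polysomal RNA (0.55 ± 0.31, SD, n = 4, limma adjusted p = 0.0391), and its total RNA ratio was 0.23 ± 0.30 (adjusted p = 0.365). The call was lost without any one of the 4 polysomal arrays (limma adjusted p between 0.0672 and 0.102) and without total RNA array 2 (0.0604) or 3 (0.0616). The other Sel1l probes averaged 0.02 ± 0.49 and 0.11 ± 0.14 in polysomal RNA and were not called, so the probes disagreed, and the mean of the 3 gave 0.23 (limma adjusted p = 0.0893).

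Syvn1, the ubiquitin ligase itself, averaged 0.03 ± 0.17 in total RNA and -0.05 ± 0.35 in polysomal RNA (SD, n = 4 each, limma adjusted p = 0.924 and 0.857). Derl1 averaged -0.17 ± 0.33 and -0.06 ± 0.20 on the brightest of its 4 probes (limma adjusted p = 0.499 and 0.827). Another of its probes, at chr15:57700749-57700808, averaged -0.53 ± 0.21 and -0.41 ± 0.56, and none of the 4 was called. Neither Syvn1 nor Derl1 passed in either fraction. The 95% interval of the total RNA ratio ran from -0.26 to 0.33 for Syvn1 and from -0.46 to 0.12 for Derl1.

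**Figure D3:**
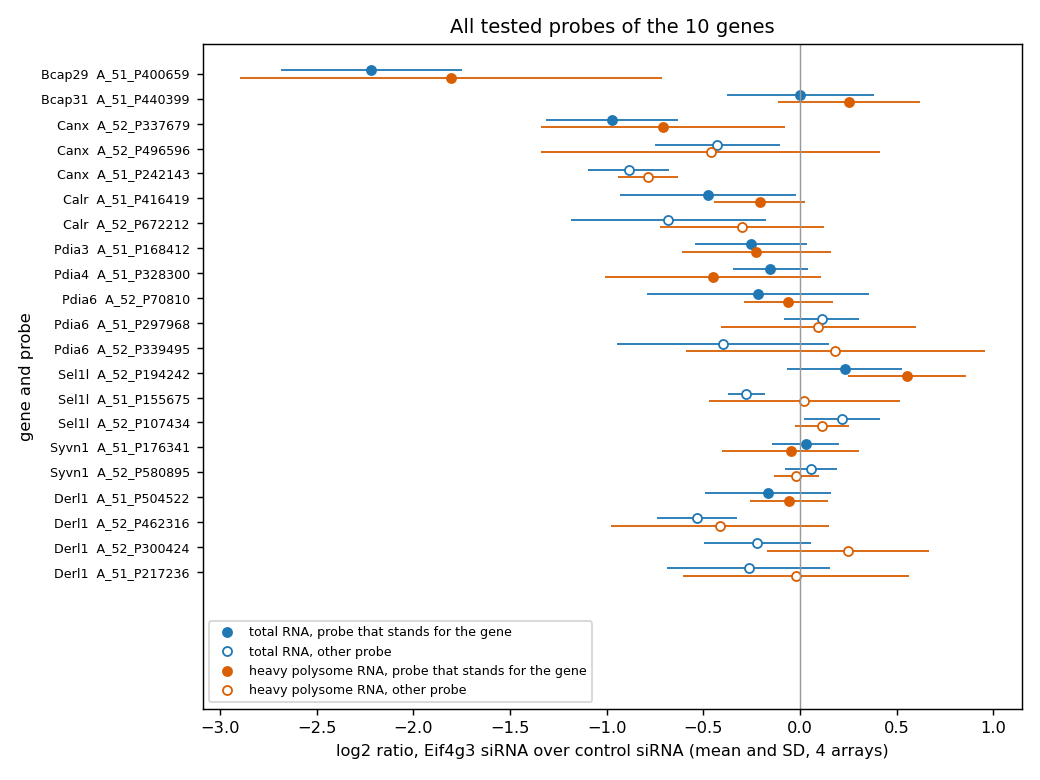
Mean log2 ratio of knockdown over control with SD over 4 arrays (horizontal axis) for each of the 21 tested probes of the 10 genes, in total RNA (blue) and polysomal RNA (orange); filled circles are the probe that stands for its gene. The 3 Canx probes all lie below 0 (-0.97 to -0.43 in total RNA). The Derl1 probes also lie below 0 in total RNA (-0.53 to -0.17), but on both sides of 0 in polysomal RNA (-0.41 to 0.25). In total RNA the Sel1l probes and the Pdia6 probes lie on both sides of 0.

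No gene was called in the difference between fractions, none of the 9 members and none of all 14848 genes (0%, limma, lowest adjusted p 0.846), although 784 genes (5.28%) and none of the 9 had an unadjusted p under 0.05. The 9 differences ran from -0.30 (Pdia4) to 0.32 (Sel1l), with a median of 0.16 against 0.06 for all genes. In polysomal against total RNA, none of the 9 was called in control cells, where 2.14% of genes were, or after the knockdown, where 0.182% were. At an unadjusted p under 0.05 Bcap31 was the 1 member of 9 that passed in each of these, where 12.5% and 12.4% of all genes did.

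Across the 8 arrays, the ratios of the brightest Canx probe followed those of Bcap29. The long-span Canx probe did not, with -0.67 on polysomal array 1 and -0.64 on array 3, where Bcap29 was at -0.25 and -2.80. Each gene was read by its brightest probe alone for the correlations given here. The Pearson correlation of Canx with Bcap29 was 0.98 over 8 arrays (Spearman 0.93), 0.93 without polysomal array 1, and 0.91 without that array and total RNA array 4, the 2 farthest from the median of Bcap29. The brightest Pdia6 probe had a correlation of 0.69 over 8 arrays (Spearman 0.90) and 0.89 without polysomal array 1, close to that of the brightest Canx probe. The other members depended on that array. Pdia3 went from -0.77 to -0.57 without it, Pdia4 from -0.78 to -0.40 and Syvn1 from -0.72 to -0.87. Those near 0 over 8 arrays were strongly negative without it, with Bcap31 going from -0.09 to -0.91, Derl1 from -0.10 to -0.79, Sel1l from -0.18 to -0.82 and Calr from -0.27 to -0.87. The points are arrays of pooled cells from 2 fractions that share their labelling and scanning, so these are descriptions and carry no p.

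Among the 5 genes of all 14848 with the ratios most like those of Bcap29 were Lin7c (Pearson 0.99), Eif4a2 (0.98), Canx (0.98) and Eif4h (0.98). Lin7c encodes a scaffold protein, Eif4a2 an RNA helicase of translation initiation and Eif4h a cofactor of such helicases. Likeness in pattern did not mean a like change. Eif4a2 had ratios of 0.18, -0.22, -0.11 and -0.68 on total RNA arrays 1 to 4, while the polysomal arrays gave 0.90, 0.01, -0.72 and -0.18. It averaged -0.21 in total RNA and 0.00 in polysomal RNA and was not called in either (limma adjusted p = 0.646 and 0.999). Of these 4, Canx alone was called, in total RNA. Eif4g3 had a correlation of -0.76 with Bcap29, which was -0.07 without polysomal array 1, the array with its largest fall (-3.16) and the smallest of Bcap29.

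**Figure D4:**
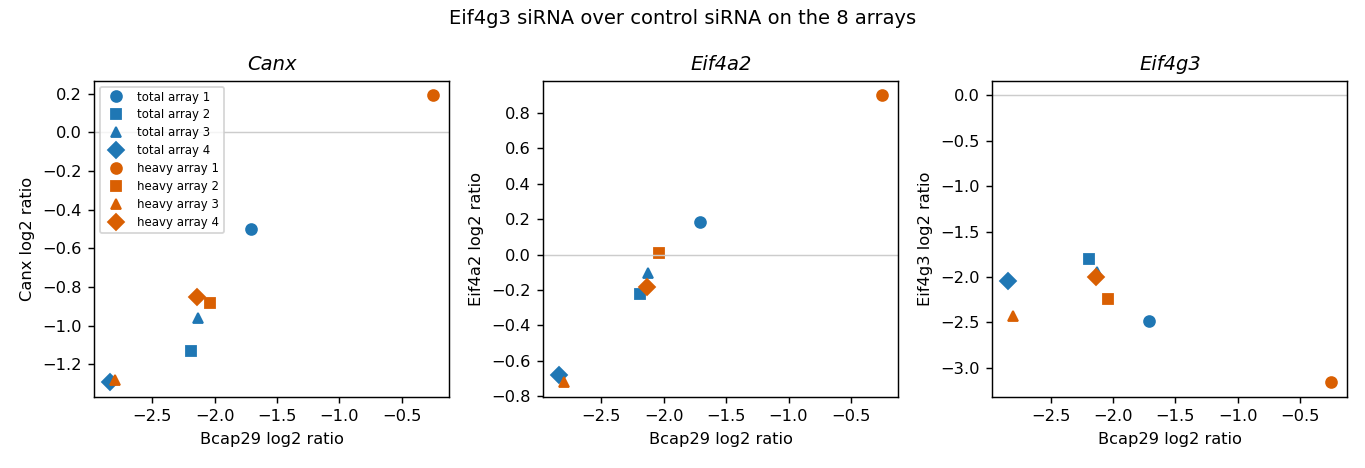
Log2 ratios of knockdown over control on the 8 arrays, with Bcap29 on the horizontal axis and Canx, Eif4a2 or Eif4g3 on the vertical axis (total RNA in blue, polysomal RNA in orange, symbols for the array number). Each gene is read by its brightest probe. Canx and Eif4a2 rise with Bcap29 along much the same order of arrays although Eif4a2 lies above 0 on 3 of 8, and Eif4g3 is below -1.8 on every array.

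Beyond the 10 genes, 5 lists of ER genes held 100 genes, of which 99 were tested. In total RNA 1 was called higher and 4 lower, and in polysomal RNA 4 higher and 7 lower, and none in the difference between fractions. The background shares were again 4.34% and 8.82% of all genes. Counts moved with single arrays, as did those of all genes. Without polysomal array 1 they were 2 higher and 12 lower in total RNA, and 4 higher and 9 lower in polysomal RNA, where 9.15% and 8.84% of all genes were called. Without polysomal array 4 they were 0 and 2, and 0 and 4, where 1.70% and 2.38% of all genes were called. Their median log2 ratio was -0.15 in total RNA, where the median of all genes was -0.04, and 0.10 in polysomal RNA, where it was 0.02. Fibroblastic stromal markers moved in the same samples, with 1 of 9 called lower in total RNA and 4 lower and 1 higher in polysomal RNA (medians -0.34 and -0.47). Of the 4 leukocyte and macrophage markers tested, Csf1r was called lower in total RNA (-0.57 ± 0.30, SD, n = 4, limma adjusted p = 0.0447) and none in polysomal RNA (medians -0.31 and -0.40). The part of these markers in the results was not tested.

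Among 26 chaperones and folding enzymes, 1 fell in total RNA and 3 fell in polysomal RNA, and none rose, where 2.67% and 3.99% of all genes were called lower. Dnajc1, a membrane-bound cochaperone of the ER, had log2 ratios of -1.65, -1.16, -1.62 and -1.92 on total RNA arrays 1 to 4, while the polysomal arrays gave -1.81, -1.47, -1.66 and -1.36. It thus lay below -1.1 on every array, polysomal array 1 included, and fell in both fractions (-1.59 ± 0.32, limma adjusted p = 0.00201, and -1.58 ± 0.20, adjusted p = 7.52e-04, SD, n = 4). Sil1, the nucleotide exchange factor of the ER chaperone BiP, fell 1.59-fold in polysomal RNA (-0.67 ± 0.15, SD, n = 4, limma adjusted p = 0.00441), and the smaller fall there of Prkcsh, a glucosidase subunit, just passed (-0.43 ± 0.31, adjusted p = 0.0491). The Dnajc1 and Sil1 calls held without each single array. With each array centred on its tested genes, that of Sil1 was lost (limma adjusted p = 0.0924). That of Prkcsh was lost without any array other than polysomal array 1 (limma adjusted p from 0.0510 to 0.177). BiP itself, Hspa5, averaged -0.50 ± 0.36 in total RNA (limma adjusted p = 0.0549) and -0.21 ± 0.07 in polysomal RNA (adjusted p = 0.338).

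Among 24 tested genes of ER-associated degradation, 2 fell in total RNA, and 3 fell and 2 rose in polysomal RNA (4.34% and 8.82% of all genes called in either direction). Os9, a lectin that hands misfolded glycoproteins to the Sel1l complex, fell in both fractions (-0.58 ± 0.27, adjusted p = 0.0321, and -0.74 ± 0.22, adjusted p = 0.00791, limma, SD, n = 4). Vcp, the ATPase that pulls substrates from the membrane, also fell in both (-0.33 ± 0.09, adjusted p = 0.0496, and -0.58 ± 0.08, adjusted p = 0.00457, limma). Faf2, which recruits that ATPase, fell in polysomal RNA (-0.39 ± 0.07, limma adjusted p = 0.0261). Man1b1, the mannosidase that trims glycans of misfolded proteins, rose in polysomal RNA (0.85 ± 0.22, limma adjusted p = 0.0239), and Rnf139, a ubiquitin ligase, rose 1.41-fold there (0.49 ± 0.27, adjusted p = 0.0293). With each array centred on its tested genes, the polysomal call of Vcp was lost (limma adjusted p = 0.112). Without each single array the polysomal falls of Os9 and Vcp held. Their calls in total RNA did not hold when any one of total RNA arrays 1 to 4 or polysomal arrays 2 and 4 was left out (limma adjusted p from 0.0535 to 0.114 for Os9 and from 0.0869 to 0.186 for Vcp). The call of Faf2 was lost without any polysomal array (0.0574 to 0.0910), that of Man1b1 without polysomal array 2, 3 or 4 (0.0572 to 0.0921), and that of Rnf139 without those or total RNA array 3 (0.0542 to 0.0799).

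Of 14 sensors and effectors of the unfolded protein response none was called in total RNA and 2 rose in polysomal RNA, where 4.83% of all genes were called higher. These were Ppp1r15b, the standing phosphatase subunit that reverses eIF2α phosphorylation (0.49 ± 0.31, SD, n = 4, limma adjusted p = 0.0301), and Mbtps1, the protease that activates ATF6 (0.54 ± 0.31, adjusted p = 0.0239). Ppp1r15b was lost without polysomal array 1, 2 or 4 or total RNA array 2 or 3 (limma adjusted p from 0.0552 to 0.126), and Mbtps1 without polysomal array 1, 3 or 4 (0.0616 to 0.0676). Without polysomal array 1, 3 of the 14 were called lower in total RNA and 1 lower in polysomal RNA, and none higher. In that setting 9.15% and 8.84% of all genes were called in either direction. Xbp1, a main transcription factor of the response, averaged -0.53 ± 0.07 in total RNA (limma adjusted p = 0.219) and 0.04 ± 0.78 in polysomal RNA. None of 19 translocon and oligosaccharyltransferase genes was called in either fraction, where 4.34% and 8.82% of all genes were. Of 18 genes of ER exit and retrieval, 1 rose and 1 fell in total RNA and 1 fell in polysomal RNA, against the same shares. Copb1, a subunit of the COPI coat, fell 2.05-fold in total RNA (-1.03 ± 0.34, limma adjusted p = 0.0125) and 1.81-fold in polysomal RNA (-0.86 ± 0.37, adjusted p = 0.0126). The total RNA call of Copb1 was lost without total RNA array 1, 2 or 3 (limma adjusted p from 0.0508 to 0.0704) and the polysomal one without polysomal array 2 (0.0541) or 4 (0.0650). Surf4, a cargo receptor, rose in total RNA (0.74 ± 0.39, limma adjusted p = 0.0363), a call lost without any total RNA array or polysomal array 2 or 4 (adjusted p from 0.0641 to 0.110). With each array centred on all its probes the sign of Surf4 turned.

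**Figure D5:**
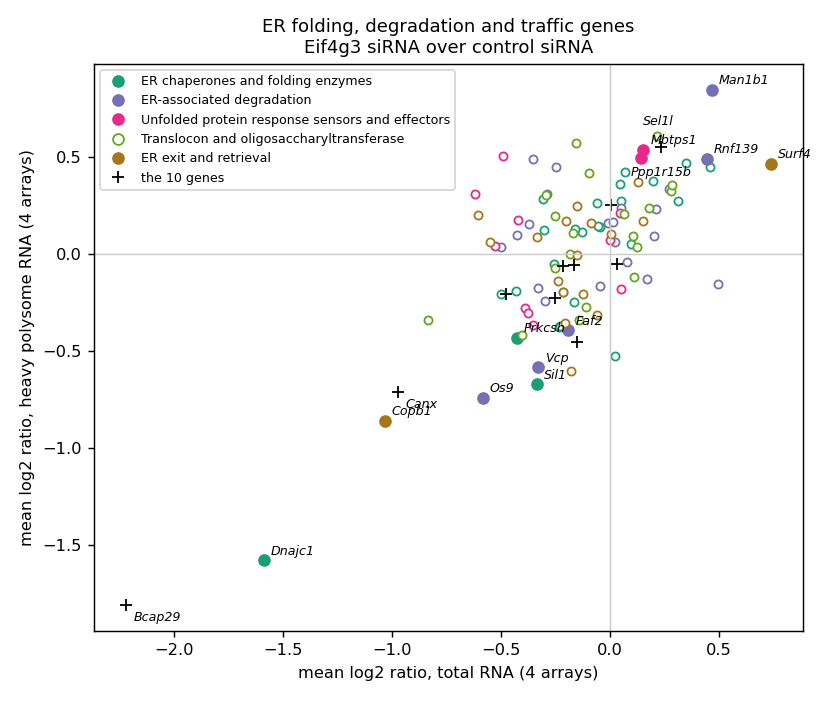
Mean log2 ratio of knockdown over control in total RNA (horizontal axis) and polysomal RNA (vertical axis), 4 arrays each, for the 99 tested genes of the 5 ER lists (circles, filled and named where called in either fraction) and the 10 genes (crosses). Bcap29 and Dnajc1 lie apart at the lower left, with Copb1 and Canx next, and the other genes lie within about 1 log2 unit of 0.

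The element shown above in the Canx, Calr, Pdia6 and Syvn1 promoters was also used to choose genes by sequence alone. Of 37 genes with it in the table, 18 were tested, 5 of them in the ER lists. In total RNA 1 of the 18 was called (Canx), and in polysomal RNA 2, all lower, where 2.67% and 3.99% of all genes were called lower. Counts this small are no result about the element. The polysomal calls were Acacb, an acetyl-CoA carboxylase (-0.95, limma adjusted p = 0.00376), and Alg12, a mannosyltransferase of the ER (-0.55, adjusted p = 0.0493), which was lost without any array other than polysomal array 2 (adjusted p from 0.0554 to 0.122). The median log2 ratio of the 18 was -0.17 in total RNA and -0.06 in polysomal RNA, against -0.04 and 0.02 for all genes. Among the 4 members with the element the total RNA means ran from -0.97 (Canx) to 0.03 (Syvn1), and whether these genes differed from each other was not tested.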

How the data were processed

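Per the file headers, the authors' scanner tables hold spot and local background intensity of both channels, made with Agilent Feature Extraction 10.7.3.1 (protocol GE2_107_Sep09) for 7 arrays and 10.5.1.1 (GE2_105_Dec08) for total RNA array 2. The deposited scanner tables also hold log10 ratios of the processed signals, and the deposited value table holds their log2 ratio, within 0.01 for 99.79% to 99.87% of 41174 probes per array, with medians from -0.21 to 0.30, and was used as a check only.

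Mean signals were background-corrected (normexp, offset 50) and normalised within arrays (loess, span 0.3), with control and marked spots at weight 0. Spots of a probe were averaged, and the brightest probe stood for its gene. Genes marked well above background, in either channel, on 3 or more of the 4 arrays of a fraction were tested in limma 3.58.1 (R 4.3.3), with 1 coefficient per fraction, two-sided, Benjamini-Hochberg adjustment and a threshold of 0.05. Channel levels used Aquantile normalisation. Intervals are 95% and come from limma. The scripts were tested on simulated data. Members and lists were chosen with earlier results of these data known. Up to 6 genes per list that passed with a fold of at least 1.5 were to be named; other called list genes were named after their values were seen. Leave-one-out counts of the lists were added after seeing the data. The labels do not say whether replicate numbers pair the fractions, so the main fit used no pairing. One of the genes most like Bcap29 is not reported here.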

Additional observations from a re-analysis of the deposited data

Results flagged for a closer look

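In 3 of 104 groups of 4 arrays examined, 1 array lay far from the other 3 by Dixon's criterion, which chance alone meets in about 1 of 20 groups. The Bcap29 level in control siRNA cells in heavy polysome RNA was 10.22 on array 1 against 11.84 to 11.95 on the others. The Pdia4 level after Eif4g3 siRNA in heavy polysome RNA was 11.85 on array 3 against 10.88 to 11.04. The Os9 log2 ratio in heavy polysome RNA was -1.07 on array 1 against -0.63 to -0.62.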

How the results depend on the processing

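The number of the 9 members called, 1 in each fraction, depended on the processing, and the cause was not tested. In total RNA it was 0 with median centring of all probes, with centring on the tested genes (an alternative added after seeing the data), with no filter and with heavy polysome arrays 2 and 4 as 1 replicate, and 2 with the processed signals. In heavy polysome RNA it was 0 under both centrings, with no filter, with each fraction fitted alone and with arrays 2 and 4 as 1 replicate, and 2 with the processed signals, with offset 16 and with slide as a random block. Leaving out 1 array gave 0 to 1 in both fractions. Centring on all probes put the median of all genes at -0.77 in total RNA and moved Bcap29 there to -3.14 (-2.36 relative to that median) and Surf4 to -0.15, reversed in sign. Leaving out 1 array gave Bcap29 values from -2.39 to -2.01 in total RNA, and -2.33 to -1.48 in heavy polysome RNA. Over all genes, calls ran from 0 to 1503 in total RNA (644 as reported), and 0 to 2641 in heavy polysome RNA (1310 as reported), the highest with slide as a random block and 0 when centred on all probes. Of the calls in total RNA 38.5% were higher, against 20.1% when centred on the tested genes and 54.5% with the processed signals. In heavy polysome RNA these shares were 54.7%, 43.9% and 55.9%. Heavy polysome Canx passed with the processed signals (limma adjusted p = 0.0356), offset 16 (0.0437), the mean of its probes (0.0398) and slide as a random block (0.0260). The correlation within slides in that last fit was negative (-0.27), and it was the fit with the most calls over all genes. With the replicate block the differences between fractions and both channel comparisons kept 0 members called. All-gene calls in the channel comparisons were then 61 in control cells (318 as reported) and 10 after the knockdown (27 as reported). Same-numbered arrays of the 2 fractions were compared by their deviations, not by the ratios themselves. The correlations of these deviations were -0.02, 0.17, -0.11 and -0.30.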
